A study of Mus musculus with 12 samples.

Results

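The potassium channel genes were taken as every gene whose symbol is Kcn followed by letters and a number, such as Kcna2 or Kcnmb4. This rule found 92 of the 49315 genes in the count table of dorsal root ganglia (DRG), the clusters of sensory neurons beside the spinal cord. Of these, 88 are described, and every count, sum and range of members below is over these 88. The letters after Kcn give the subfamily. By these letters, 36 genes were voltage-gated, 15 were inward rectifiers, 14 were two-pore channels, 12 were calcium-activated channels with their subunits, and 11 were accessory subunits. All mice carried the Postn-Cre transgene and 2 floxed alleles of Nf2, so that both groups lacked Nf2 in Schwann cells and their precursors, where the Periostin promoter drives Cre. The 6 Nf2 mice had no other deletion, and the 6 DKO (double knockout) mice also carried floxed Fak1, the gene annotated as Ptk2. Mice were 10 months old, each genotype had 3 animals labelled male and 3 labelled female, and about 8 ganglia of 1 animal were pooled into 1 library. No mouse with intact Nf2 was sequenced, so every comparison is between DKO and Nf2 DRG and addresses what differs when Fak1 is lost in addition to Nf2.

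Potassium channels let potassium leave a cell down its gradient, which holds the membrane near its resting potential, ends each action potential and spaces one spike from the next. Voltage-gated members open on depolarisation, inward rectifiers pass current best near rest, and two-pore channels carry a background leak. Most pores of the calcium-activated class follow a rise of calcium or sodium inside the cell. In a DRG, most of these genes are known from the sensory neurons, while Kcnj10 is known from the satellite glial cells that wrap them and buffer potassium. Bulk libraries of whole ganglia hold RNA of neurons, glia, vessels and adhering tissue. Fewer cells of a type and less RNA per cell therefore cannot be told apart in these data.

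The libraries held 21129191 to 41250329 counts. Mitochondrial genes took 4.45% of the counts in Nf2 mouse 649 and 5.60% in DKO mouse 887, against 1.99% to 3.15% in the other 10. The library labelled male mouse 702 had 496 CPM (counts scaled to a library total of 1000000) of Xist and 0.525 CPM of the Y-linked gene Ddx3y, which goes against its label. Neuron markers were plentiful in every library, with a summed level of 14659 to 18702 CPM, as were Schwann cell markers (10630 to 14570 CPM). The targeted gene Ptk2 had a log2 fold change (log2 of the DKO to Nf2 ratio) of -0.15 in whole ganglia, which did not pass the test (adjusted p = 0.529). Nf2, deleted in both groups, had -0.14 (adjusted p = 0.435).

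A potassium channel selects its ion in a short loop whose core is usually the residues glycine, tyrosine and glycine. The rule used symbols only, so the coding sequences were searched for this core. In the longest coding sequence of each gene in GENCODE M21, the in-frame codons GGNTANGGN, which can spell that core, were found in 58 of the 73 members that form a pore and in 0 of the 15 auxiliary members (Kcnab, Kcne, Kcnip and Kcnmb). Across all 21864 protein-coding genes, 6.02% held a match on the coding strand. The 15 pore-forming members without it all held GGNTTNGGN, which can spell glycine, phenylalanine or leucine, and glycine. That second motif was present in 11.98% of all protein-coding genes. These 15 were 7 of the 8 Kcnh members, Kcnj8, Kcnj11, Kcnk2, Kcnk12, Kcnk13, Kcnt1, Kcnt2 and Kcnu1. Among the 14 two-pore channels, whose single chain carries a pair of pore loops, 8 held both motifs. The match in Kcnh4, the eighth Kcnh member, lay at codon 54 of 1018. A match is a description of letters only. The windows below are from voltage-gated, inward rectifier and calcium-activated members that held the first motif. They share it by selection, and the 15 members without it could not appear. Each runs 5′ to 3′ on the coding strand with the motif in capitals, 12 bases before it and 6 after it, from the reference genome GRCm38.
Kcna2 (voltage-gated, chr3:107105218-107105244, plus strand): atgacaactgtaGGCTATGGAgacatg
Kcnc1 (voltage-gated, chr7:46427967-46427993, plus strand): atgacgacactgGGCTATGGAgacatg
Kcns1 (voltage-gated, chr2:164164848-164164874, minus strand): atgaccacagtgGGCTATGGGgatgtg
Kcnj10 (inward rectifier, chr1:172369296-172369322, plus strand): cagaccaccatcGGCTATGGCttccgc
Kcnn1 (calcium-activated, chr8:70850651-70850677, minus strand): ttcttgtccattGGCTATGGAgacatg
Kcnma1 (calcium-activated, chr14:23528407-23528433, minus strand): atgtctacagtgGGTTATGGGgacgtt

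The family spanned a wide range of levels. Of the 88 members, 73 had a mean of at least 1 CPM and 13 had at least 100 CPM. Per length (CPM divided by the summed exon length in kb), the accessory subunit Kcnab2 was highest, with a mean of 134 CPM per kb and 102 to 157 across the 12 mice. Next came Kcna2, a delayed rectifier of myelinated axons, with a mean of 106 CPM per kb and a range of 77.8 to 131. The ranges of these 2 genes overlapped. Kcna1, its partner in the channels beside the nodes of Ranvier, had 76.9 CPM per kb (29.8 to 103). The highest member of the calcium-activated class was the sodium-activated channel Kcnt1 (21.9 CPM per kb, 17.5 to 27.4), that of the two-pore class was Kcnk1 (25.9, 20.2 to 35.3), and that of the inward rectifiers was Kcnj12 (14.6, 11.2 to 18.0). Kcnj10 followed it with 13.8 CPM per kb (9.37 to 21.7), a range that overlapped that of Kcnj12. Genes with the lowest levels included Kcnj1, known from the kidney, which had no read in any Nf2 mouse. In counts, Kcna2 alone took 926 to 1560 CPM, within a summed level of all members of 5011 ± 443 CPM in Nf2 DRG and 5178 ± 314 CPM in DKO DRG (mean ± SD, n = 6 each).

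**Figure D1:**
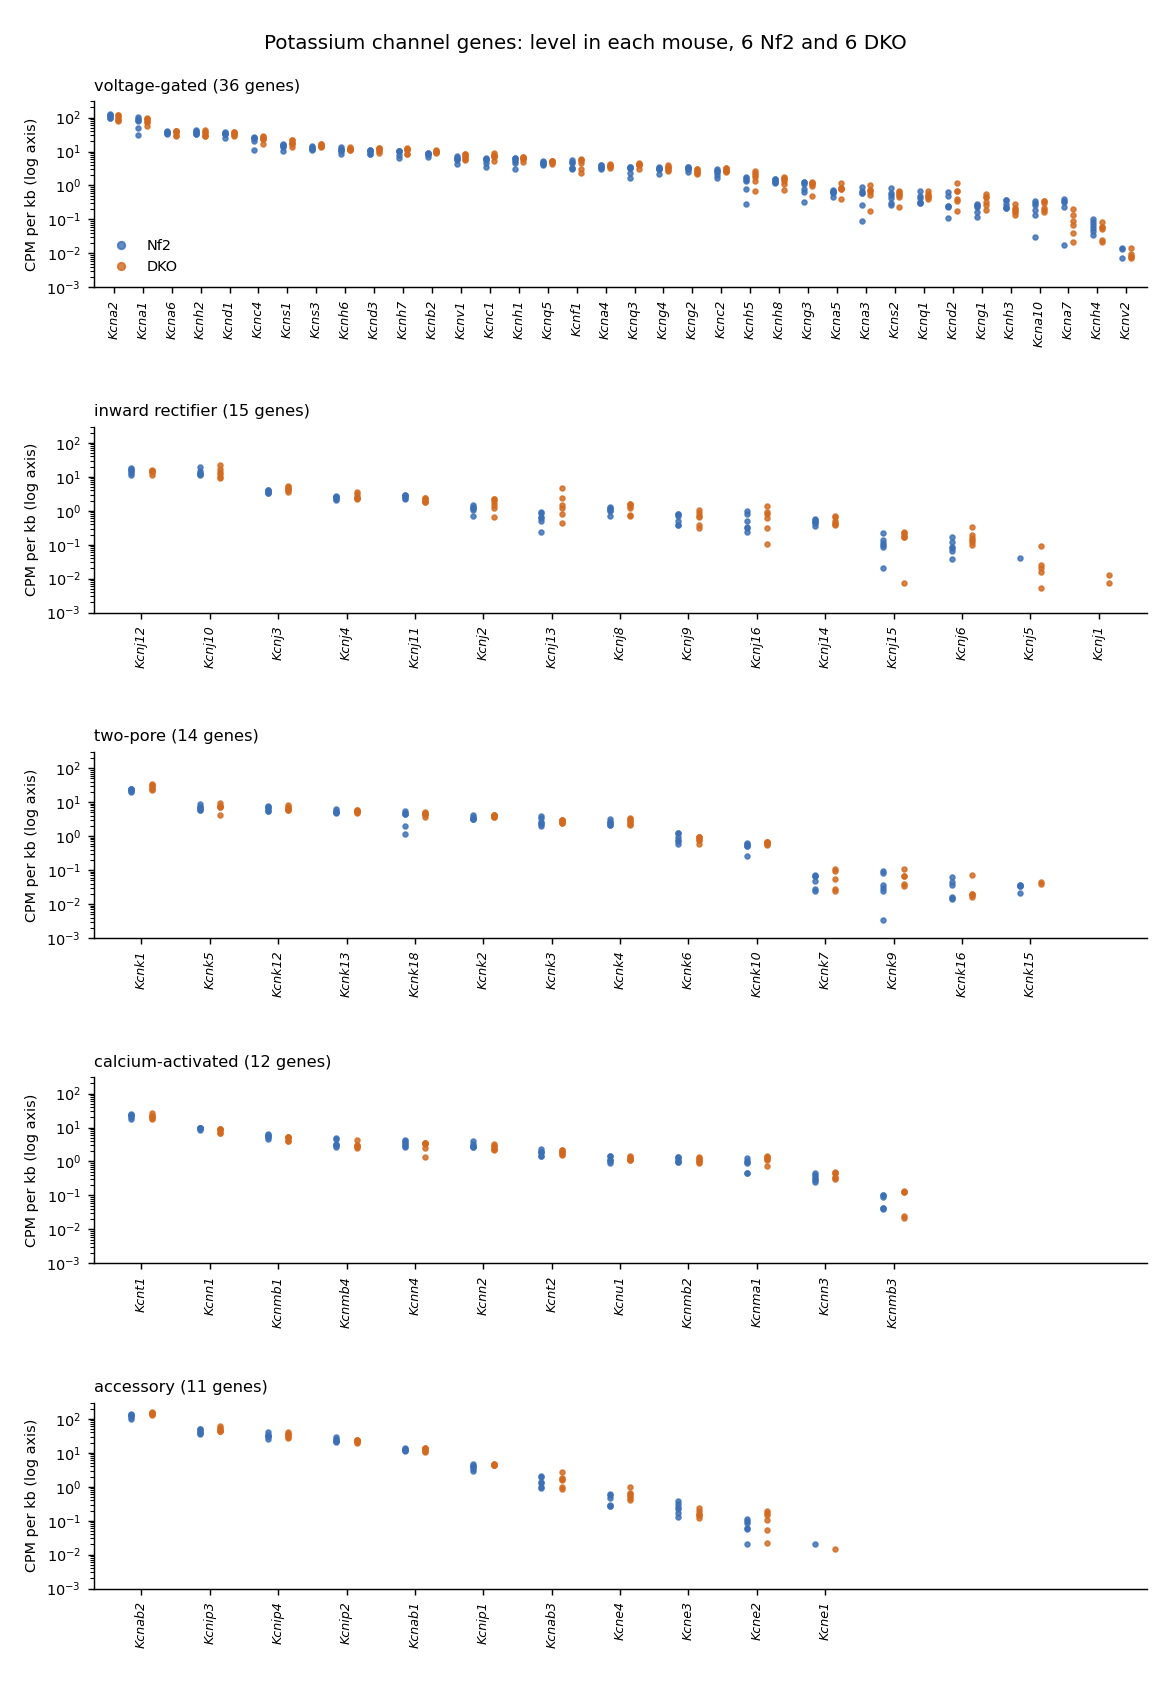
Level of each of the 88 potassium channel genes in each mouse, in CPM per kb of exon on a log axis, by class and ordered by the mean (blue, 6 Nf2 mice; orange, 6 DKO mice). Values of 0 are not drawn. Kcnab2 and Kcna2 lie highest at means of 134 and 106 CPM per kb, and the colours overlap for nearly every gene.

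Too few counts for a test were present for 12 members, Kcna7, Kcne1, Kcne2, Kcne3, Kcnh4, Kcnj1, Kcnj5, Kcnk7, Kcnk15, Kcnk16, Kcnmb3 and Kcnv2. None of them passed 0.860 CPM in any mouse. The other 76 were among the 18295 genes tested for genotype by edgeR's quasi-likelihood test, with Benjamini-Hochberg adjustment over all 18295 genes and a threshold of 0.05. The share of all genes past this threshold was 0.94%, with 0.372% higher in DKO. Of the 76 members, edgeR placed 0 past it, while DESeq2 placed 2 (Kcnj11 and Kcnj13) and limma voom 1 (Kcnj11). Among all genes, edgeR placed 172 past it, DESeq2 845 and limma voom 521. No member of the 76 had genotypes without overlap in CPM scaled by edgeR's TMM (trimmed mean of M values) factors, where 2.08% of all genes tested had none. At an unadjusted p under 0.05, edgeR counted 17 of the 76 members, 12 with a positive and 5 with a negative log2 fold change, against 14.9% of all genes. The 5 were Kcnj11, Kcnn1, Kcnmb1, Kcnh3 and Kcng2, the last named after its value was seen.

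Small positive differences prevailed in the family. The log2 fold change was above 0 in 56 of the 76 members (73.7%), against 51.0% of all genes tested, with a median of 0.14 against 0.00. By class, it was above 0 in 27 of 33 voltage-gated members (median 0.16), 11 of 13 inward rectifiers (median 0.16), 8 of 11 two-pore channels (median 0.11), and 6 of 8 accessory subunits (median 0.15). The calcium-activated class had 4 of 11 above 0 and a median of -0.06. Leaving out 1 mouse moved the medians of the classes. The voltage-gated median was 0.10 without Nf2 mouse 649 and 0.21 without Nf2 mouse 884. Without mouse 649, 22 of 34 voltage-gated members and 50 of 77 members in all were above 0, against 53.6% of all genes. Without mouse 884 these were 27 of 33 and 58 of 77, against 49.95% of all genes. The two-pore median was 0.036 without Nf2 mouse 649 and 0.037 without DKO mouse 917, the accessory median was 0.050 without Nf2 mouse 702 and 0.063 without DKO mouse 917, and the calcium-activated median was -0.15 without DKO mouse 887 and -0.0074 without DKO mouse 886. The inward rectifier median was 0.13 without DKO mouse 886 and 0.27 without DKO mouse 887. With limma voom, 52 of 76 members were above 0 (68.4%, against 51.5% of all genes). In that fit 8 of 13 inward rectifiers and 5 of 8 accessory subunits were above 0. In the females alone, 20 of 34 voltage-gated members and 7 of 13 inward rectifiers were above 0. Members are not independent of each other, since they share the same 12 libraries. Without mice 649 and 887 together, 54 of 77 members were above 0 (70.1%, against 49.5% of all genes in that fit). With the females alone the share was 57.7%, against 51.5% of all genes. With the males alone it was 63.2%, against 49.05% of all genes.

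**Figure D2:**
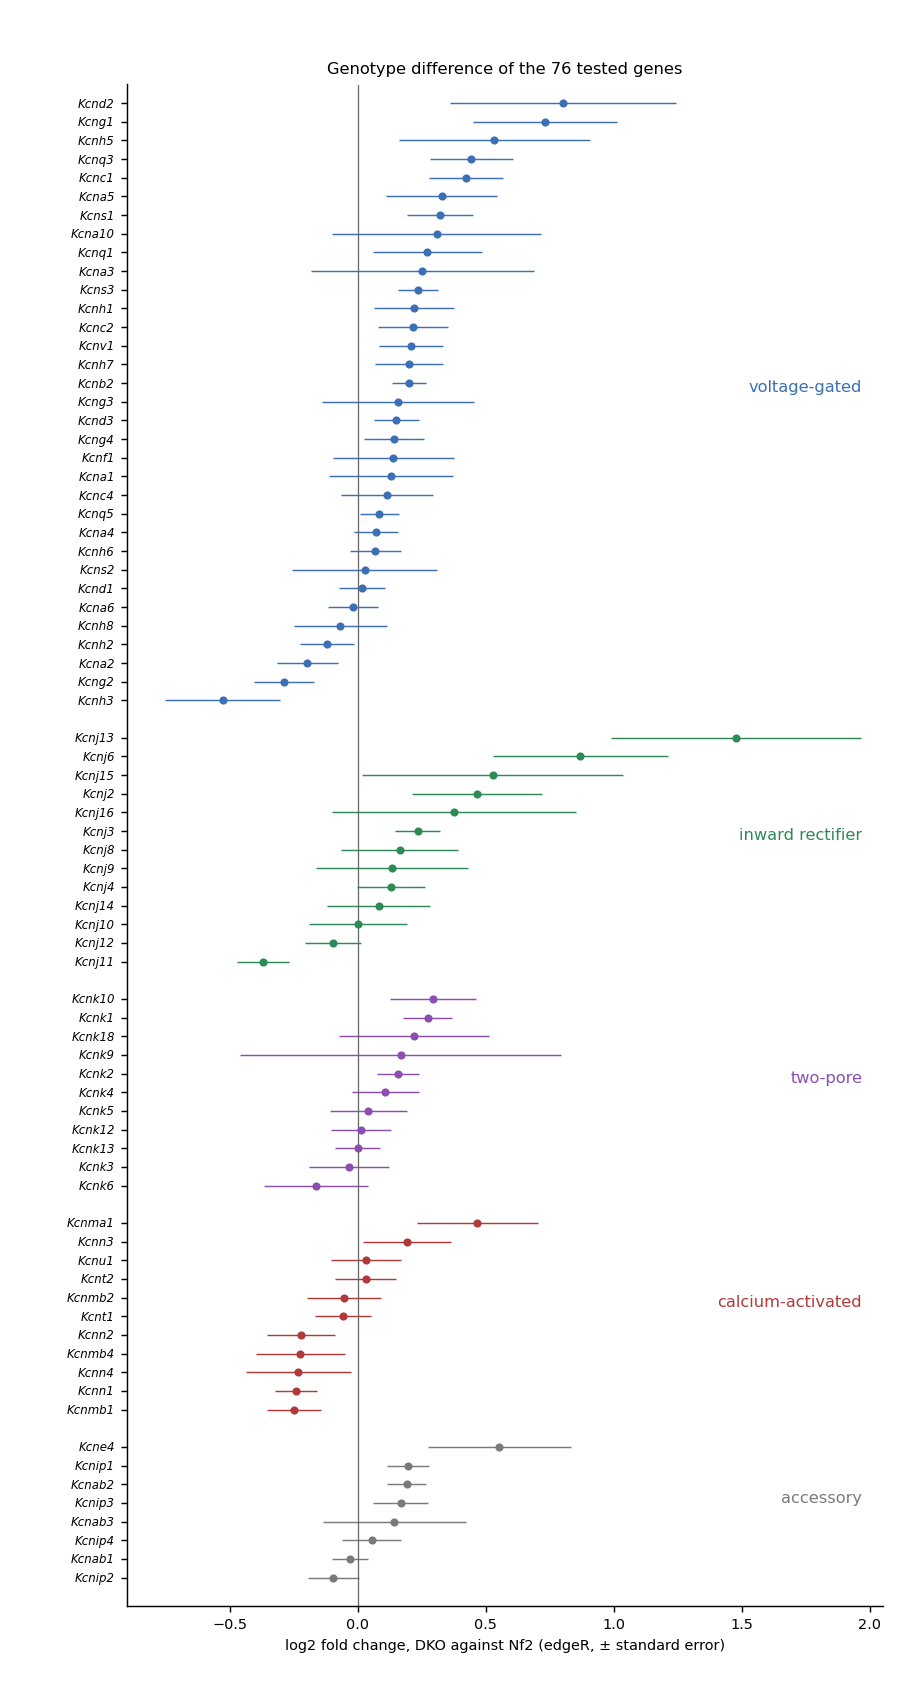
Log2 fold change of DKO against Nf2 DRG for the 76 tested members described, with its standard error, by class and ordered by size. Most voltage-gated members lie right of 0, while 7 of 11 calcium-activated members lie left of it, and none of the 76 had an adjusted p under 0.05.

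Members of the Kcnq subfamily underlie the M current, which opens slowly near threshold and restrains repeated firing. Kcnq3 (ENSMUSG00000056258, GRCm38 chromosome 15, 65986387 to 66286642, minus strand) had 25.0, 48.4 and 52.1 CPM in Nf2 DRG (lowest, median, highest) against 43.8, 62.0 and 67.7 CPM in DKO DRG. All 6 DKO mice were above the Nf2 mean of 43.4 CPM. Its groups overlapped through DKO mouse 887, the log2 fold change was 0.44 ± 0.16, and the adjusted p was 0.211. Kcnq5 had 0.08 ± 0.08 (adjusted p = 0.662), with 31.5 to 40.7 CPM in Nf2 and 32.4 to 41.1 CPM in DKO DRG.

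**Figure D3:**
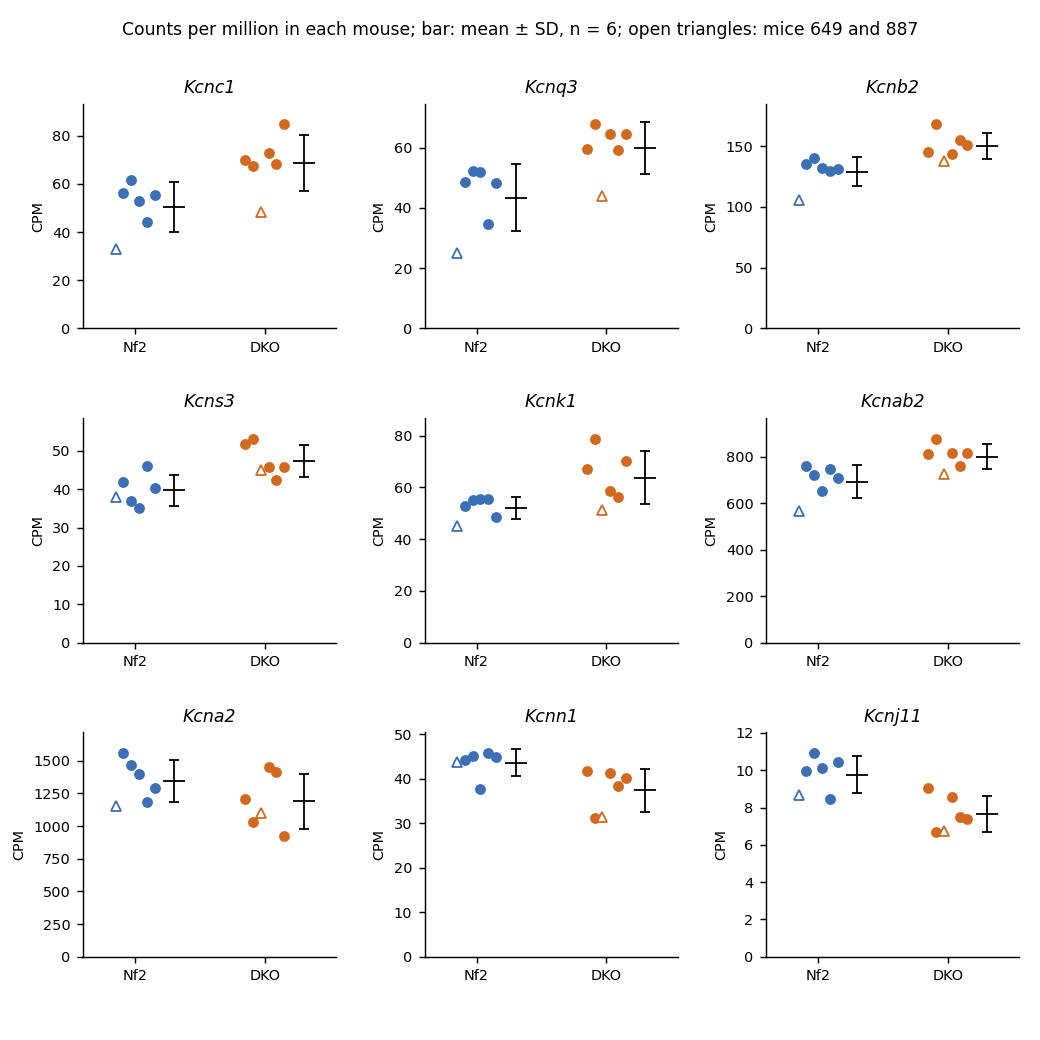
CPM of 9 members in each mouse, with the mean ± SD of each genotype beside the points (n = 6), from 0 upward. Open triangles are mice 649 and 887, the libraries with the highest mitochondrial share. The genotypes overlap in all 9, and in Kcnb2 they meet between 137 and 140 CPM.

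Channels of the Kcnb and Kcnc subfamilies repolarise the membrane after a spike. Kcnb2 (ENSMUSG00000092083, GRCm38 chromosome 1, 15287254 to 15723750, plus strand) had 106, 131 and 140 CPM in Nf2 DRG and 137, 148 and 168 CPM in DKO DRG (lowest, median, highest), a log2 fold change of 0.20 ± 0.07 and an adjusted p of 0.176. In CPM the Kcnb2 groups met between 137 and 140 CPM, at DKO mouse 887 and Nf2 mouse 884. With relative log expression or upper-quartile factors they no longer did. Kcnc4, the highest of the Kcnc subfamily per length, had 40.7, 90.01 and 99.8 CPM against 62.3, 88.9 and 108 CPM and showed almost the same medians (0.11 ± 0.18, adjusted p = 0.821). Kcnc1, named after its values were seen, had 33.0, 54.0 and 61.7 CPM against 48.4, 69.1 and 84.7 CPM (0.42 ± 0.14, adjusted p = 0.176). Nf2 mouse 649 was the lowest of its group in Kcnc1 and DKO mouse 887 the lowest of its own, and the other 5 DKO mice were above every Nf2 mouse.

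Members of the Kcna subfamily, which set the excitability of axons, split in sign. Kcna2 had 1151, 1347 and 1560 CPM in Nf2 DRG and 926, 1155 and 1448 CPM in DKO DRG, with a log2 fold change of -0.20 ± 0.12 (adjusted p = 0.480). Kcna1 spread widely among Nf2 mice, from 142 CPM in mouse 649 to 494 CPM in mouse 918, and DKO mice lay within that range at 269 to 459 CPM (0.13 ± 0.24, adjusted p = 0.851). Kcna4, which inactivates and is known from small sensory neurons, had 14.5 to 19.0 CPM against 15.6 to 20.5 CPM (0.07 ± 0.09, adjusted p = 0.751). None of the 7 tested Kcna genes had an unadjusted p under 0.05. The summed Kcna level was 1928 ± 290 CPM in Nf2 DRG and 1814 ± 294 CPM in DKO DRG.

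A-type channels of the Kcnd subfamily delay the first spike. Kcnd1, the highest of them per length, had nearly equal levels, 135 to 199 CPM in Nf2 and 154 to 203 CPM in DKO DRG (0.02 ± 0.09, adjusted p = 0.954). Kcnd3 had 80.1 to 106 CPM against 87.5 to 121 CPM (0.15 ± 0.09, adjusted p = 0.469). The scarce Kcnd2 had the highest log2 fold change of the voltage-gated members with a mean of at least 1 CPM, 0.80 ± 0.44 (adjusted p = 0.429), with 0.575, 1.24 and 3.21 CPM against 0.899, 2.74 and 5.92 CPM. Without DKO mouse 917 it was 0.49. In Nf2 DRG the highest Kcnd2 levels were those of mice 884 and 1049, which also had the highest summed spinal cord and oligodendrocyte markers (181 and 204 CPM), and in DKO DRG mouse 917 was highest in both (358 CPM of the markers). The part of those cells was not tested.

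Several voltage-gated members form no current alone and modify Kcnb channels. Kcns1, linked to pain sensitivity, had 28.9, 40.4 and 46.1 CPM in Nf2 DRG and 36.4, 47.8 and 61.3 CPM in DKO DRG (0.32 ± 0.13, adjusted p = 0.256). Kcns3 had 35.1, 39.1 and 46.2 CPM against 42.3, 45.8 and 53.2 CPM, a log2 fold change of 0.24 ± 0.08 and an adjusted p of 0.167. All 6 DKO mice exceeded the Nf2 mean of Kcns3, while Nf2 mouse 1048 lay within the DKO range. Of the other silent subunits, Kcnv1 had 0.21 ± 0.12 (adjusted p = 0.472), Kcng4 had 0.14 ± 0.12 (adjusted p = 0.634) and Kcnf1 had 0.14 ± 0.24 (adjusted p = 0.834). In the Kcnh subfamily, the ether-a-go-go channels, Kcnh2 was highest per length, with 161 to 203 CPM in Nf2 and 136 to 214 CPM in DKO DRG (-0.12 ± 0.11, adjusted p = 0.655). Kcnh3 had the lowest log2 fold change of the class (-0.53 ± 0.22, adjusted p = 0.283) at 1.22 to 2.21 CPM against 0.797 to 1.67 CPM.

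Among the inward rectifiers, the extremes were 2 genes at low levels. Kcnj11 encodes the pore of the ATP-sensitive channel that couples metabolism to excitability. It had 8.47, 10.0 and 10.9 CPM in Nf2 DRG and 6.69, 7.43 and 9.03 CPM in DKO DRG (lowest, median, highest), so that every DKO mouse was below the Nf2 mean but DKO mice 885 and 914 lay above the lowest Nf2 mouse. The log2 fold change was -0.37 ± 0.10 with an adjusted p of 0.108 in edgeR, 0.0218 in DESeq2 and 0.0418 in limma voom. Kcnj13 had 0.298, 0.801 and 1.17 CPM against 0.568, 1.73 and 5.83 CPM, with DKO mouse 886 at the top (1.48 ± 0.49, adjusted p = 0.167). Without mouse 886 its log2 fold change was 0.95 (adjusted p = 0.324). Of its exonic length, 49.1% overlaps Gigyf2 on the opposite strand, and without stated strand-specific counting the reads of the 2 genes cannot be told apart. DESeq2 gave Kcnj13 an adjusted p of 0.0474.

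Kcnj10, the satellite glial channel, had 62.7, 67.7 and 102 CPM in Nf2 DRG and 50.7, 70.2 and 117 CPM in DKO DRG (0.00 ± 0.19, adjusted p = 0.997). The spread of Kcnj10 within each genotype was wider than the difference between them. The 8 satellite glia markers had a summed level of 5034 ± 692 CPM in Nf2 and 3965 ± 548 CPM in DKO DRG, with 4 above 0, 4 below and a median log2 fold change of -0.17. Most of that sum was Apoe alone, with a median of 3714 CPM in Nf2 and 2935 CPM in DKO DRG. None of the 8 passed the threshold in edgeR, and 3 had an unadjusted p under 0.05. Kcnj12 had 30.8 to 49.5 CPM against 31.8 to 42.8 CPM (-0.10 ± 0.11, adjusted p = 0.740).

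The 14 two-pore channels summed to 167 ± 10.4 CPM in Nf2 and 186 ± 16.7 CPM in DKO DRG (mean ± SD). In edgeR, 0 of the 11 tested passed the threshold. Kcnk1 had 45.1, 53.9 and 55.4 CPM in Nf2 DRG and 51.2, 62.9 and 78.8 CPM in DKO DRG, with a log2 fold change of 0.27 ± 0.10 and an adjusted p of 0.196. It was the only two-pore member with an unadjusted p under 0.05 (1 of 11). Kcnk2, a leak channel opened by stretch and heat, had 15.4 to 20.5 CPM against 17.6 to 20.9 CPM (0.16 ± 0.08, adjusted p = 0.392). Kcnk18, a leak channel of sensory neurons linked to migraine, ranged from 3.96 to 19.7 CPM among Nf2 mice, with mouse 649 lowest, and from 13.1 to 17.6 CPM among DKO mice (0.22 ± 0.29, adjusted p = 0.781). The highest log2 fold change of the class was that of Kcnk10 (0.29 ± 0.17, adjusted p = 0.456, and 0.16 without Nf2 mouse 649), and the lowest that of Kcnk6 (-0.16 ± 0.20, adjusted p = 0.764).

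In the calcium-activated class, 7 of 11 tested members had log2 fold changes under 0, and no member was past the threshold. Kcnn1, a small-conductance channel that follows each spike with a slow hyperpolarisation, had 37.7, 44.6 and 45.8 CPM in Nf2 DRG and 31.2, 39.3 and 41.7 CPM in DKO DRG. All 6 DKO values were below the Nf2 mean of 43.6 CPM, but Nf2 mouse 918 lay within the DKO range (-0.24 ± 0.08, adjusted p = 0.175). The large-conductance pore Kcnma1 pointed the other way, with 7.63, 15.5 and 20.8 CPM against 12.6, 20.3 and 25.2 CPM (0.47 ± 0.24, adjusted p = 0.385). Its subunits did not follow it. Kcnmb1 had the lowest log2 fold change of the class (-0.25 ± 0.11, adjusted p = 0.286) at 19.1 to 27.0 CPM against 16.2 to 22.4 CPM, and Kcnmb4 had -0.22 ± 0.17 (adjusted p = 0.601, and -0.11 without Nf2 mouse 649). Kcnmb1 is also known from smooth muscle, and the 10 vascular smooth muscle and pericyte markers summed to 226 ± 34.8 CPM in Nf2 and 223 ± 27.1 CPM in DKO DRG. Of these markers 8 were above 0 and 2 below, with a median log2 fold change of 0.24, and the pericyte gene Rgs5, the most abundant, had -0.32 (adjusted p = 0.588). Of the sodium-activated channels, Kcnt1 had 174 to 245 CPM against 167 to 260 CPM (-0.06 ± 0.11, adjusted p = 0.851) and Kcnt2 had 10.0 to 16.4 CPM against 10.6 to 14.7 CPM (0.03 ± 0.12, adjusted p = 0.938). Kcnu1, known from sperm, was scarce in both genotypes (0.03 ± 0.14, adjusted p = 0.942).

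Accessory subunits bind the pore from within the cell or in the membrane and change its gating and transport. Kcnab2, which binds Kcna channels, had 568, 715 and 761 CPM in Nf2 DRG and 724, 812 and 878 CPM in DKO DRG. All 6 DKO mice exceeded the Nf2 mean, and the log2 fold change was 0.19 ± 0.08 (adjusted p = 0.250). The calcium sensor Kcnip3, a partner of Kcnd channels, had 126 to 181 CPM against 157 to 216 CPM (0.17 ± 0.11, adjusted p = 0.515), and its relative Kcnip2 had the lowest log2 fold change of the class (-0.10 ± 0.10, adjusted p = 0.710). The highest was that of Kcne4 (0.55 ± 0.28, adjusted p = 0.379), at 0.713 to 1.61 CPM against 1.09 to 2.68 CPM.

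Mice 649 and 887 were often the lowest of their groups, among all genes as well as among the members. Mouse 649 was the lowest Nf2 mouse in 30 of the 76 tested members, a share of 39.5% near the 34.6% of all genes tested, and in 17 of the 33 voltage-gated ones. DKO mouse 887 was the lowest of its group in 41 of the 76 (53.9%, against 33.0% of all genes). These are the 2 libraries with the highest mitochondrial share. Over the 46 members with a mean of at least 10 CPM, the median deviation from the Nf2 mean of log2(CPM + 4) was -0.15 in mouse 649 and -0.02 in mouse 887. In the other 5 DKO mice it was 0.09 to 0.17. Leaving out both mice gave 1 member past the threshold, Kcnc1, out of 314 genes in all.

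**Figure D4:**
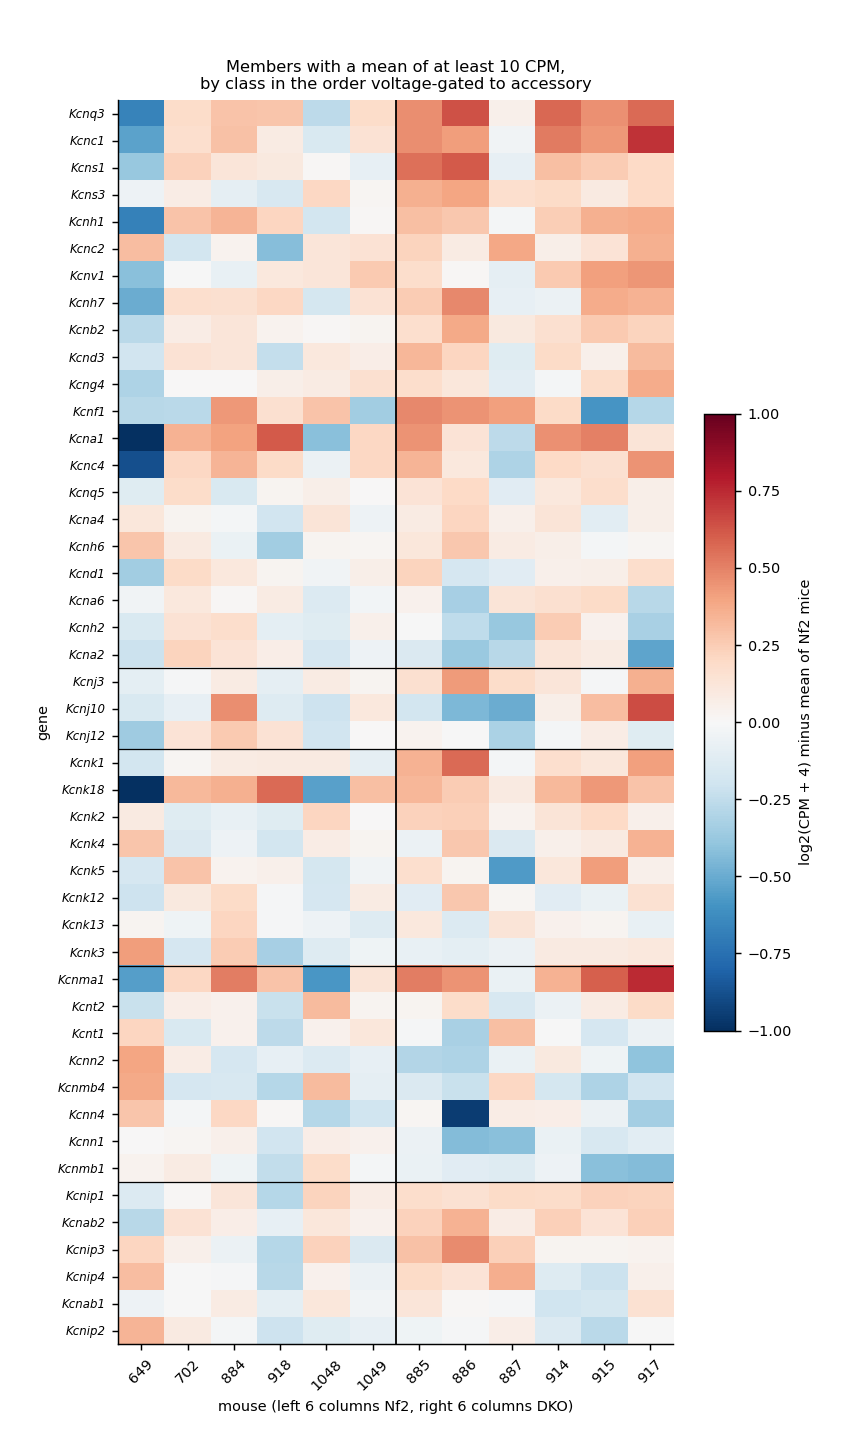
Deviation of log2(CPM + 4) from the mean of the Nf2 mice for the 46 members with a mean of at least 10 CPM (rows, by class) in each mouse (columns, Nf2 left and DKO right of the line). Colours end at -1 and 1, and the values run from -1.16 to 0.75. The columns of Nf2 mouse 649 and DKO mouse 887 differ from those of their groups, with Kcna1, Kcnk18 and Kcnc4 among the darkest blue cells of mouse 649.

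Markers of other cells were counted in the same fit, and C1qb alone among the skeletal muscle, spinal cord, macrophage and endothelial markers passed the threshold. Skeletal muscle markers summed to 14.97 to 1169 CPM in Nf2 DRG (12 genes, median 748) and 21.7 to 372 CPM in DKO DRG (median 99.1), so that the groups overlapped. All 12 had log2 fold changes under 0, 11 of them at an unadjusted p under 0.05, with a median log2 fold change of -2.16. Spinal cord and oligodendrocyte markers summed to 63.5 to 204 CPM and 103 to 358 CPM. All 9 tested of these 11 had log2 fold changes above 0 (median 0.62), while Opalin and Chat were too low to test (at most 1.30 and 0.169 CPM). Macrophage markers summed to 392 ± 49.5 CPM and 343 ± 40.2 CPM, with 11 of 12 under 0. Among them C1qb fell (log2 fold change -0.71, adjusted p = 0.0138). Endothelial markers summed to 169 ± 13.6 CPM and 196 ± 19.9 CPM, with 9 of 10 above 0. The neuron and Schwann cell markers had medians of 0.01 and 0.03. With the mean log2(CPM + 4) of the neuron markers in each mouse as a covariate, 5 members passed the threshold. Kcnb2, Kcnc1, Kcnma1 and Kcnq3 were higher and Kcnmb4 was lower, among 906 of the 18295 genes tested. That neuron covariate fit placed 27 of 76 members at an unadjusted p under 0.05, against 25.5% of all genes. With the skeletal muscle level as a covariate, edgeR placed 0 members past it and 18 of 76 at an unadjusted p under 0.05, where that fit placed 14.7% of all genes. The part of the other cell types in these differences was not tested.

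No member differed between the labelled sexes past the threshold, in an additive fit beside genotype. Of the 76, 5 had an unadjusted p under 0.05, while edgeR placed 2.91% of all genes there and 0.0164% past the threshold. The 5 were Kcnj10, Kcnk3, Kcnd2, Kcnj16 and Kcnmb2, all higher in libraries labelled male. Kcnj10 had the lowest p (0.00667, adjusted p = 1.00), with a log2 difference of 0.48 ± 0.15. It had 62.7 to 79.1 CPM in Nf2 females, 65.6 to 102 CPM in Nf2 males, 50.7 to 63.9 CPM in DKO females and 76.6 to 117 CPM in DKO males. Male and female values did not overlap in DKO DRG and did overlap in Nf2 DRG. The summed spinal cord and oligodendrocyte markers were 103 to 209 CPM in DKO females and 194 to 358 CPM in DKO males, and 99.2 to 204 CPM in Nf2 females and 63.5 to 181 CPM in Nf2 males. The 2 Nf2 mice highest in Kcnj10 (884 and 1049) and the highest DKO mouse (917) were also the highest of their genotypes in those markers, whose part was not tested.

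The dependence of the genotype difference on labelled sex was tested as an interaction. No member passed the threshold, where 0.0109% of all genes did, and 5 of 76 had an unadjusted p under 0.05, against 4.78% of all genes. They were Kcnv1, whose log2 fold change was larger in males by 0.69 ± 0.18, and Kcnip4, Kcnip2, Kcnip3 and Kcnh6, in which it was smaller in males (-0.60 to -0.42). In all of them the adjusted p was 0.92. Kcnip2 had 81.1 to 105 CPM in Nf2 males and 70.5 to 77.2 CPM in Nf2 females, while DKO males (67.4 to 82.0 CPM) and DKO females (79.4 to 85.9 CPM) overlapped. The Nf2 males include mouse 702 (87.3 CPM), whose Xist and Ddx3y levels go against its label. Counted as female, it would lie above Nf2 male 884 (81.1 CPM), and the Nf2 sexes would overlap. Without mouse 702, 0 members passed in either test.

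Other genes of potassium handling were described from 3 lists. Of 28 partners of potassium channels, 26 were tested and 0 passed the threshold, with 17 above 0 and a median log2 fold change of 0.06. In TMM-scaled CPM, 1 of the 26 had genotypes without overlap (3.85%, against 2.08% of all genes tested). Cntnap2, which anchors Kcna channels beside the node, had 120, 156 and 168 CPM in Nf2 DRG and 166, 181 and 203 CPM in DKO DRG (0.26 ± 0.08, adjusted p = 0.135). Ank3, which anchors Kcnq channels at the axon initial segment, had 724, 810 and 894 CPM against 611, 693 and 759 CPM (-0.26 ± 0.08, adjusted p = 0.160). Its groups overlapped. Abcc8, a sulfonylurea receptor that pairs with Kcnj11, had 10.7 to 14.5 CPM against 9.89 to 14.0 CPM (-0.06 ± 0.11, adjusted p = 0.842). Abcc9, the other sulfonylurea receptor of the list, had 7.33 to 12.5 CPM against 5.46 to 10.7 CPM. Its log2 fold change was the lowest of the list (-0.41 ± 0.18, adjusted p = 0.303). These partners and Hcn4 below were named after their values were seen. Of 5 genes of pacemaker channels and their partners, 3 were above 0 and 0 passed, and Hcn4 had 7.58 to 10.3 CPM in Nf2 and 8.61 to 12.99 CPM in DKO DRG (0.31 ± 0.12, adjusted p = 0.245). Of 12 genes for potassium transport (sodium pumps and cation-chloride carriers), 8 were above 0 and 0 passed. At an unadjusted p under 0.05 the counts were 7 of 26, 1 of 5 and 2 of 12, against 14.9% of all genes.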

How the data were processed

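The authors deposited raw read counts per Ensembl gene, 1 column per mouse. Per the submitters' processing notes, these were made with Trimmomatic 0.36, STAR 2.5.2b and featureCounts of Subread 1.5.2 on GRCm38. The annotation release, strand and multi-mapping settings are not given in the sources used here. Genes and exon lengths were matched to GENCODE M21 (88 of 88 members). The columns of all 12 mice were used as labelled, and 0 columns belonged to other samples. Per-mouse CPM are counts scaled to a library total of 1000000. The spread between mice had a biological coefficient of variation of 19.8%. Counting error was of similar size or larger in the scarcest members, such as Kcnj13 with 7 to 137 counts in a mouse.

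Genes were kept by filterByExpr by genotype (18295), given TMM (trimmed mean of M values) factors and tested with edgeR 4.0.16 (quasi-likelihood, R 4.3.3) on all 12 mice without covariates. Labelled sex was tested beside genotype in an additive model, and their interaction in a model of both. P-values were adjusted by Benjamini-Hochberg over all 18295 genes. Overlap between genotypes was judged on TMM-scaled CPM. Alternatives were other scaling factors, filters (none, or at least 1 CPM in 6 mice), DESeq2 1.42.0, limma 3.58.1 voom with quality weights, covariates (sex, neuron or skeletal muscle marker level), each sex alone, and each mouse left out. Added after seeing the data were the males without mouse 702 and the fit without mice 649 and 887. The tools edgeR, limma voom and DESeq2 were run on simulated counts with planted differences, and the other steps were not part of that run. Tables and figures used Python 3.11.15, pandas 2.3.3, numpy 2.4.6 and matplotlib 3.10.9.

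The members, gene lists and tests were chosen with earlier results of these data known. Named with values were members past a threshold or without overlap, the highest per length in each subfamily, the highest and lowest log2 fold change of each class at a mean of at least 1 CPM, and 19 members known in sensory ganglia. Of the 92 members, 4 are not reported here, nor is 1 gene of a list, and they are left out of every count, sum and figure of members, though the fits held all genes. Others are named as chosen after their values were seen or within small counts. The labels do not pair mice across genotypes and give no batch.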

Additional observations from a re-analysis of the deposited data

Results flagged for a closer look

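In the 37 members named by rule, each genotype's 6 values of log2(CPM + 4) were examined for a mouse far from the others, whose gap to its nearest neighbour, as a share of the range, was above Dixon's critical value for 6 samples. Of 74 groups, 7 had one, where about 1 in 20 (3.7) would by chance. Nf2 mouse 649 lay far below the rest in Kcnc4 (5.48, nearest mouse 6.30), Kcng4 (3.63, nearest 3.94), Kcnk10 (2.65, nearest 3.09) and Kcnb2 (6.78, nearest 7.06). Nf2 mouse 918 lay below the rest in Kcnn1 (5.38, nearest 5.58). DKO mouse 887 lay below the rest in Kcnq3 (5.58, nearest 5.99) and above them in Kcnmb4 (4.16, nearest 3.81). The groups are not independent, since 4 of the 7 flags fell on 1 library. Mice 649 and 887 had the highest mitochondrial share of counts (4.45% and 5.60%), and its part in these values was not tested.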

How the results depend on the processing

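The 172 genes past the threshold for genotype became 845 with DESeq2, 521 with limma voom, 906 with the neuron marker covariate, 81 with the skeletal muscle covariate, 57 in females, 2 in males, 9 in males without mouse 702 and 314 without mice 649 and 887, and 81 to 217 with 1 mouse left out. Members past it numbered 0 of 76 and became 2 with DESeq2 (Kcnj11 and Kcnj13), 1 with limma voom (Kcnj11), 5 with the neuron covariate and 1 without mice 649 and 887 (Kcnc1). They stayed at 0 with the other factors, filters and covariates, in each sex alone and with 1 mouse left out. Members without overlap numbered 0 and became 1, Kcnb2, with relative log expression or upper-quartile factors. Members differing by sex or in the interaction stayed at 0 in every alternative run. Of 962 values of the 37 named members, 910 kept their direction and side of the threshold and 45 changed sign, in 14 members, none past the threshold. The sign changed in females alone for Kcnc4 (-0.053), Kcnd1 (-0.026), Kcng4 (-0.045), Kcnt1 (0.043), Kcnv1 (-0.14), Kcnip2 (0.15), Kcna1 (-0.068), Kcnj10 (-0.32) and Kcnt2 (-0.039). It changed in males alone, with and without mouse 702, for Kcnf1 (-0.28 and -0.42), Kcnip3 (-0.091 and -0.10), Kcnu1 (-0.021 and -0.17) and Kcna4 (-0.054 and -0.065), and without it for Kcnk6 (0.14). Without mice 649 and 887 it changed for Kcnd1 (-0.027) and Kcnf1 (-0.0032). Kcnu1 changed with the neuron covariate (-0.026), Kcna4 with the muscle covariate (-0.0066), and Kcnj10 with no filter (-0.0056), limma voom (-0.0078) and the sex covariate (-0.042). With 1 mouse left out, ranges that crossed 0 were those of Kcnc4 (-0.023 to 0.18), Kcnd1 (-0.044 to 0.058), Kcnj10 (-0.17 to 0.11), Kcnu1 (-0.038 to 0.10), Kcna1 (-0.030 to 0.26) and Kcnt2 (-0.026 to 0.11). In 17 others the sign held but the value moved by over 1.5 times, namely Kcne4 (0.36 to 0.68), Kcnip2 (-0.14 to -0.011), Kcnip3 (0.10 to 0.22), Kcnmb4 (-0.35 to -0.11), Kcnt1 (-0.15 to -0.0031), Kcnj12 (-0.16 to -0.038), Kcnj13 (0.95 to 1.66), Kcnk10 (0.16 to 0.36), Kcnk18 (0.036 to 0.37), Kcnk6 (-0.27 to -0.054), Kcna4 (0.027 to 0.11), Kcnd2 (0.49 to 1.11), Kcnf1 (0.052 to 0.27), Kcng4 (0.068 to 0.18), Kcnh2 (-0.20 to -0.076), Kcnq5 (0.050 to 0.13) and Kcnv1 (0.13 to 0.26). The causes were not tested. No paired analysis was possible because the labels give no replicate numbers shared by the genotypes. Depth limits members near 1 CPM, where few reads stand behind a value.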
